A study of Mus musculus with 12 samples.

Results

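Cholesterol synthesis and Insig feedback were examined in mouse liver RNA-Seq through a set of 7 named genes, of which 6 are analysed here, out of 20069 genes in the signal table. The rows were taken by gene symbol, and the rule holds no threshold on their values. They are 4 enzymes of the route from isopentenyl units to sterols (Idi1, Fdps, Sqle and Cyp51) and the genes of both Insig proteins (Insig1 and Insig2). No lipoprotein receptor is among them, so uptake is described only through a list of other genes. All 6 passed the expression minimum of 8 reads per base pair (rpbp) in at least 1 sample, as did 10198 genes in all. Livers came from wild-type C57BL/6 male mice, 3 to 6 months old, which had lived in 12 hr of light and 12 hr of darkness for at least 2 weeks. Total RNA was taken every 4 hr from ZT2 (2 hr after lights on) to ZT22, in 2 series of 6, which gives 12 samples and 2 per time point. Every animal shared this genotype, cycle and lack of treatment. Feeding, and how many mice stand behind a sample, are not given in the sources used here.

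Cells make cholesterol from acetyl-CoA through mevalonate, isopentenyl units, farnesyl diphosphate and squalene. Transcription of these enzymes is driven by SREBP2, a membrane-bound factor that SCAP escorts from the endoplasmic reticulum to the Golgi for cleavage when sterols are scarce. When sterols are abundant, the Insig proteins hold SCAP in the endoplasmic reticulum, and they also take part in the degradation of membrane proteins there. Liver is a main site of this synthesis, and Insig1 is itself an SREBP target, while the liver has a transcript of Insig2 that insulin lowers.

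The annotation of mm9, the build of the files, places Idi1 on chr13:8884852-8891641 and Sqle on chr15:59146632-59162747, both on the plus strand. Insig1 lies on the plus strand of chr5:28397952-28405201, and Cyp51 on the minus strand of chr5:4081145-4104746. On the minus strand are also Fdps, at chr3:88897514-88905881, and Insig2, at chr1:123200930-123229166. All 6 are protein-coding, and the signal is the mean coverage of their exons. Positions, exon lengths and transcripts here are those of GENCODE, while the authors quantified UCSC genes. The summed exons span from 1233 bases in Fdps to 5546 bases in Sqle. Insig2 has 13 annotated transcripts and Insig1 has 1, and the files do not separate transcripts. A U6 snRNA gene lies within Fdps and shares 0 bases with its exons.

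The 250 bases before the transcription start are shown for Idi1 and Cyp51, each of which was the gene most like the other by its mRNA, and for both Insig genes, whose mRNAs were not alike. They come from RefSeq on GRCm38.p6, are written 5′ to 3′ on the strand of the gene, and were matched for 4 of the 6 genes. Capitals mark 3 motifs, searched on both strands and chosen after these sequences had been seen. They are TCACCNCA, a form of the sterol regulatory element that SREBP binds, CCAAT, bound by NF-Y, and CACGTG, the E-box that clock and other helix-loop-helix factors bind.
Idi1, chr13:8885356-8885605 (plus strand): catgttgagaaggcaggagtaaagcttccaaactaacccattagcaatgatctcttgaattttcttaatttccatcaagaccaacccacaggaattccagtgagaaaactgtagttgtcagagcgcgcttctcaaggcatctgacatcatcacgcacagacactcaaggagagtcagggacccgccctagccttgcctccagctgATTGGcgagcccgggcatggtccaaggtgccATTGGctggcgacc
Cyp51, chr5:4104698-4104947 (minus strand): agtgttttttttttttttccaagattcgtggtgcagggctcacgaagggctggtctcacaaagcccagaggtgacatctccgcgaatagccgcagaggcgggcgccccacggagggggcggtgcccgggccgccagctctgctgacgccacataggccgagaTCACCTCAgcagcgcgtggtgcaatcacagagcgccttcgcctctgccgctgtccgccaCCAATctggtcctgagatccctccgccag
Insig1, chr5:28071162-28071411 (plus strand): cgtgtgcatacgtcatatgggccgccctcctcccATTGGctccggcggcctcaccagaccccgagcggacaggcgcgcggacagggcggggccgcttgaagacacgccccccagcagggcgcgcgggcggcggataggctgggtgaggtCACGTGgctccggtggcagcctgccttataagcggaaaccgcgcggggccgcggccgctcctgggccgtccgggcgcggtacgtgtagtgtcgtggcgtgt
Insig2, chr1:121332590-121332839 (minus strand): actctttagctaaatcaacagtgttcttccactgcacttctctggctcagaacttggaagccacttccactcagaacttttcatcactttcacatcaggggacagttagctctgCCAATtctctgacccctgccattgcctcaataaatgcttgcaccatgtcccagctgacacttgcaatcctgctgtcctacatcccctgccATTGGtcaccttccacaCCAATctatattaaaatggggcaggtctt

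TCACCNCA was found in the Cyp51 window alone, 88 bases before the start, and is held by 3.63% of 32536 windows of this length. CCAAT, held by 33.8% of the windows, was in all 4 of those shown, with 2 copies in Idi1, 1 each in Cyp51 and Insig1, and 3 at the Insig2 start shown. CACGTG was found in the Insig1 window 101 bases before the start, and is held by 6.04% of the windows. RefSeq gives Insig2 2 further starts in the table, and none of the 3 motifs is in their windows. A match is a description of these letters and not a bound site.

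The samples had a similar summed signal, and their log2 values correlated at a median of 0.961 to 0.972 with the other samples, except for both ZT2 samples, at 0.944 and 0.946. The hepatocyte markers fit the labelled tissue, with 8 of 8 expressed and a summed level between 100770 and 179425 rpbp, lowest in ZT2 series 2. Of 5 lymphocyte markers 0 passed the minimum, with a summed level of 0.4 to 5.64 rpbp. Kupffer cell markers (5 of 6 expressed) summed to between 281 and 572 rpbp, lowest in ZT14 series 2 and highest in ZT2 series 1. Liver endothelial markers (6 of 6) summed to between 177 and 211 rpbp, lowest in ZT22 series 2 and highest in ZT14 series 1. Stellate cell markers (4 of 5) summed to between 227 and 298 rpbp, lowest in ZT2 series 1 and highest in ZT14 series 2. Erythroid markers (3 of 3 in the table) summed to between 353 and 1174 rpbp, lowest in ZT22 series 1 and highest in ZT10 series 2. In whole liver, fewer cells of a type and less RNA per cell cannot be told apart.

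**Figure D1:**
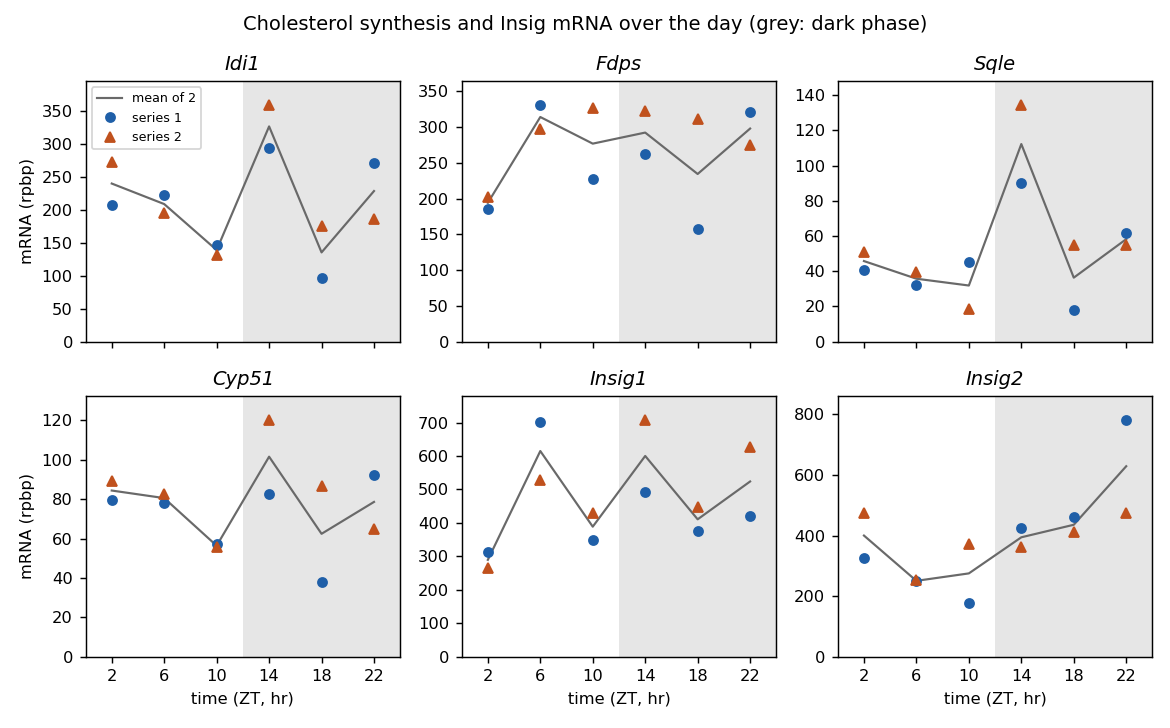
mRNA level in rpbp (y axis, from 0) of the 4 enzymes and both Insig genes against time in ZT hr (x axis). Circles are series 1, triangles series 2, the line is the mean of the 2 samples and grey marks the dark phase. Sqle reached 135 rpbp at ZT14, Insig2 reached 782 rpbp at ZT22, and the samples of ZT18 lay apart for all 4 enzymes.

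Over the day, Insig2 was the 1 gene of the 6 called rhythmic, with its highest mean late in the dark phase. The enzymes and Insig1 were not called by the same criteria. The share called was 19.1% over all expressed genes, and the call of Insig2 was lost with the adjusted permutation p (0.0777) and in each series alone. Sqle and Idi1 had their highest mean at ZT14, shortly after lights off, and Cyp51 too, but none of them passed the test of time after adjustment. Levels are given per base of the exons of all annotated transcripts, so that exons not used in liver lower them and their order is that of coverage. The mean coverage over 12 samples was highest for Insig1 (471 rpbp), followed by Insig2 (397), Fdps (268), Idi1 (214), Cyp51 (77.3) and Sqle (53.4). The standard deviation over the 12 samples was 146, 155, 61.0, 75.4, 21.2 and 32.1 rpbp, in the same order, so that of neighbours in this order only Idi1 and Cyp51 lay farther apart than the larger of their standard deviations.

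Idi1 encodes isopentenyl-diphosphate isomerase, which makes the allylic unit that starts chain growth. Its mRNA in series 1 was 208 rpbp at ZT2, 223 at ZT6, 148 at ZT10, 294 at ZT14, 96.2 at ZT18 and 271 at ZT22. In series 2 it was 273, 196, 131, 360, 175 and 187 rpbp at the same times. Both ZT14 samples lay above all others, and both ZT10 samples and ZT18 series 1 were the lowest. The mean at ZT14 was 327 ± 46.6 rpbp (SD, n = 2), 2.41-fold that at ZT18 (136 ± 56.0). The limma F-test across time points gave Idi1 an adjusted p of 0.0555 (unadjusted 0.0107).

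Fdps encodes farnesyl diphosphate synthase, at the branch point between sterols and other isoprenoids. Its mRNA in series 1 was 185 rpbp at ZT2, 331 at ZT6, 227 at ZT10, 263 at ZT14, 158 at ZT18 and 321 at ZT22. Series 2 gave 203, 297, 327, 322, 311 and 275 rpbp. It was low in both ZT2 samples and in ZT18 series 1, and the remaining samples overlapped across times. Fdps had the narrowest range of time means of the 4 enzymes, with a highest mean 1.62-fold the lowest and a limma adjusted p across time points of 0.349.

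Sqle encodes squalene epoxidase, the first oxygen-requiring step of sterol synthesis and a rate-limiting one. Its mRNA in series 1 was 40.8 rpbp at ZT2, 32.1 at ZT6, 45.0 at ZT10, 89.9 at ZT14, 17.8 at ZT18 and 61.4 at ZT22. In series 2 it was 50.7, 39.4, 18.8, 135, 54.9 and 55.0 rpbp. Both ZT14 samples were above all others, and 5 of 6 dark samples exceeded every light sample, with ZT18 series 1 the lowest of the 12. Sqle had the widest range of the 6 genes, with a highest value 7.54-fold the lowest. Its mean at ZT14 was 3.52-fold that at ZT10, with an adjusted p across time points of 0.120 (limma, unadjusted 0.0417).

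Cyp51 encodes lanosterol 14-alpha-demethylase, the cytochrome P450 of the sterol route. Its mRNA in series 1 was 79.5 rpbp at ZT2, 78.2 at ZT6, 57.3 at ZT10, 82.8 at ZT14, 38.0 at ZT18 and 92.1 at ZT22. Series 2 gave 89.2, 82.8, 55.5, 120, 86.8 and 65.1 rpbp. Only ZT14 series 2 and ZT22 series 1 exceeded every light sample, ZT18 series 1 was the lowest, and the light and dark samples overlapped. The mean at ZT14 was 1.80-fold that at ZT10, with a limma adjusted p across time points of 0.340.

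Insig1 encodes the Insig protein that SREBP itself induces. Its mRNA in series 1 was 313 rpbp at ZT2, 701 at ZT6, 349 at ZT10, 492 at ZT14, 375 at ZT18 and 421 at ZT22. In series 2 it was 267, 529, 429, 708, 447 and 627 rpbp. The means thus went up and down between neighbouring time points, from 290 rpbp at ZT2 to 615 at ZT6, 389 at ZT10, 600.2 at ZT14, 411 at ZT18 and 524 at ZT22. Both ZT2 samples were the lowest. The ZT6 mean was 2.12-fold the ZT2 mean, with an adjusted p across time points of 0.0640 (limma, unadjusted 0.0141).

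Insig2 encodes the second Insig protein, which is not an SREBP target. Its mRNA in series 1 was 324 rpbp at ZT2, 249 at ZT6, 178 at ZT10, 426 at ZT14, 460 at ZT18 and 782 at ZT22. Series 2 gave 476, 252, 373, 363, 411 and 475 rpbp. The ZT6 samples and ZT10 series 1 were the lowest, ZT22 series 1 stood alone at the top, and 4 of 6 light samples lay below every dark sample. The mean at ZT22 was 629 ± 217 rpbp (SD, n = 2) and that at ZT6 251 ± 2.04 rpbp, a 2.51-fold difference. In series 2 the ZT22 value did not exceed the ZT2 value. ZT10 had the widest gap between its samples, at 2.10-fold.

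The question of a 24 hr rhythm was put with the study's own criteria, namely an F24 (the share of the variance of the 12 values that a 24 hr cosine takes) above 0.45, a permutation p of F24 below 0.05, and a highest value over 1.5-fold the lowest. Among the members 1 of 6 passed, beside 19.1% of the 10198 expressed genes. Insig2 had an F24 of 0.571 and a peak at 20.7 hr, with a permutation p of 0.0078, and it stayed below the limits for a strong rhythm (F24 above 0.6). After Benjamini-Hochberg adjustment over all expressed genes this p became 0.0777, which 5.62% of the genes keep below 0.05. A cosine fitted by limma to log2 values gave Insig2 an adjusted p of 0.0488, and 8.61% of genes passed there. In either series alone Insig2 did not pass the exact permutation test, with F24 of 0.742 and p = 0.0833 in series 1 and F24 of 0.556 and p = 0.300 in series 2.

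The other members had little of their variance at 24 hr. F24 was 0.0024 for Idi1, 0.0029 for Cyp51, 0.067 for Insig1, 0.079 for Fdps and 0.201 for Sqle, and their permutation p lay between 0.392 and 0.989. Without both ZT18 samples, a choice made after seeing the data, F24 of Sqle was 0.588 (permutation p = 0.0169), and the count of rhythmic members was 2. Without both ZT2 samples it was 1, as before, and the gene was Insig2. In series 2 alone Fdps passed the criteria, with an F24 of 0.755 and p = 0.0333 in the exact permutation test, and Insig2 did not.

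Because 6 time points were sampled, the variance of a gene divides into parts at 24 hr, 12 hr and 8 hr and a part within time points, where the 8 hr part is the alternation between neighbouring time points. The median 24 hr part was 7.31% over the 6 members and 31.0% over all expressed genes. The median 8 hr part was 28.6% over the members and 3.92% over all expressed genes. Over the 16 expressed sterol synthesis enzymes outside the members, these medians were 28.2% at 24 hr and 35.8% at 8 hr. Insig1 had 60.4% of its variance in this alternation, Idi1 33.4%, Fdps 32.2%, Sqle 25.0%, Cyp51 22.3% and Insig2 3.35%. The 12 hr part was widest for Idi1, at 48.0%. Within time points lay 49.8% of the variance of Fdps and 46.9% of that of Cyp51, against 18.4% for Idi1. These shares are descriptions of the 12 values, with no test.

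**Figure D2:**
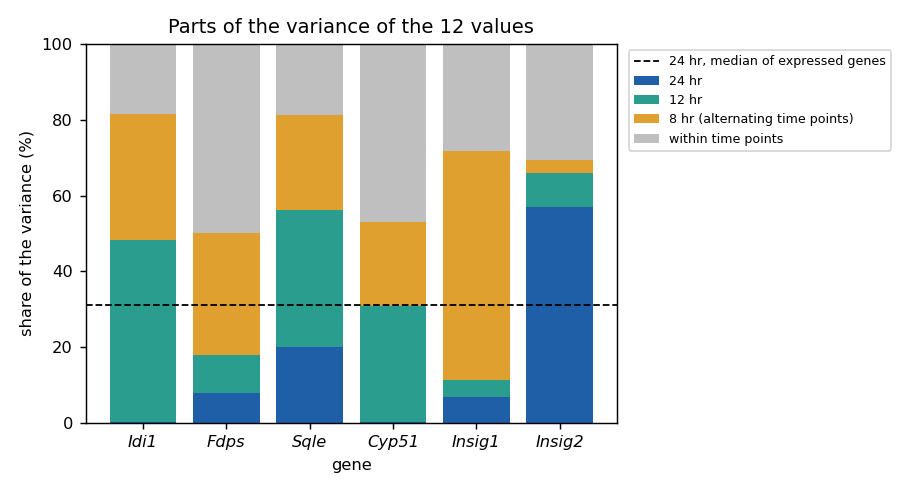
Share of the variance of the 12 values (y axis, %) of each gene (x axis), divided into 24 hr, 12 hr, 8 hr and within-time-point parts, stacked. The dashed line is the median 24 hr part of all expressed genes, 31.0%, which Insig2 alone exceeds at 57.1%.

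Any difference among the 6 time points was tested with limma on log2(rpbp + 1). After adjustment 0 of 6 members passed, beside 17.6% of all expressed genes. At an unadjusted p below 0.05 there were 4 of 6 (Idi1, Sqle, Insig1 and Insig2), beside 37.2% of genes. The count was 0 to 2 when a single sample was left out, and ZT18 series 2 gave the 2, with adjusted p of 0.0226 for Idi1 and 0.0392 for Sqle without it. Leaving out ZT22 series 1 gave Insig1 an adjusted p of 0.0454, and leaving out ZT10 series 2 gave Insig2 0.0364. Without both ZT18 samples Idi1 and Sqle passed, at 0.0398 and 0.0470.

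The dark samples (ZT14, ZT18 and ZT22) were compared with the light samples (ZT2, ZT6 and ZT10), 6 against 6. All 6 members had a higher mean log2 value in the dark, beside 4559 of the 10198 expressed genes, though 0 of 6 passed the limma test after adjustment, where 0.216% of genes were higher and 0.137% lower. The median difference of the members was 0.22 on the log2 scale, and that of all expressed genes was -0.02. At an unadjusted p below 0.05 there was 1 of 6, Insig2, beside 13% of genes in either direction. Insig2 was 0.68 ± 0.23 higher on the log2(rpbp + 1) scale (SE), with an adjusted p of 0.244 in limma (unadjusted 0.0131). Its median was 443 rpbp in the dark (363 to 782) and 288 in the light (178 to 476). Sqle had a like difference with a wider error, 0.68 ± 0.40, and an adjusted p of 0.499 (limma), with a median of 58.2 rpbp in the dark (17.8 to 135) and 40.1 in the light (18.8 to 50.7). The remaining 4 genes differed by 0.07 to 0.29. Single samples moved these differences by over 1.5-fold for every member but Insig2, and the choice of series did so for Insig2 as well. Without ZT14 series 2 that of Sqle was 0.45 and that of Idi1 0.0005, and without ZT2 series 2 that of Insig1 was 0.17. The signs for Fdps and Cyp51 were not kept when some samples were left out. In series 1 and series 2 alone the difference was 1.14 and 0.22 for Insig2, 0.25 and 1.12 for Sqle, and 0.0068 and 0.57 for Insig1.

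At ZT18 the samples differed more for the 4 member enzymes than for most genes. Series 2 was above series 1 by 1.57 on the log2 scale for Sqle, 1.17 for Cyp51, 0.98 for Fdps and 0.86 for Idi1. Of all expressed genes, 0.784%, 1.25%, 2.03% and 2.68% differed at least as much in either direction. Of the 16 expressed enzymes outside the members, 14 were higher in series 2 at ZT18, with a median of 0.48, where the median over all expressed genes was 0. At ZT10 as many enzymes as at ZT18, 7 of 20, differed beyond 1.5-fold between the samples, beside 7.78% of all expressed genes at ZT10 and 6.92% at ZT18. At ZT10 they had no common direction, as 11 of 20 were higher in series 2. There Sqle differed by -1.22 and Insig2 by 1.07, and 1.80% and 2.40% of all expressed genes differed at least as much. At ZT14 17 of 20 enzymes were higher in series 2 as well, and at ZT22 only 2 of 20 were. The median over all expressed genes was -0.076 at ZT14 and -0.019 at ZT22. At ZT18 Insig1 differed by 0.25 and Insig2 by -0.16, within the range of most genes. The hepatocyte markers summed to 179425 rpbp in series 1 and 168623 in series 2 at ZT18, the lymphocyte markers to 0.4 and 3.16, and the erythroid markers to 806 and 482. Their part in the difference was not tested.

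**Figure D3:**
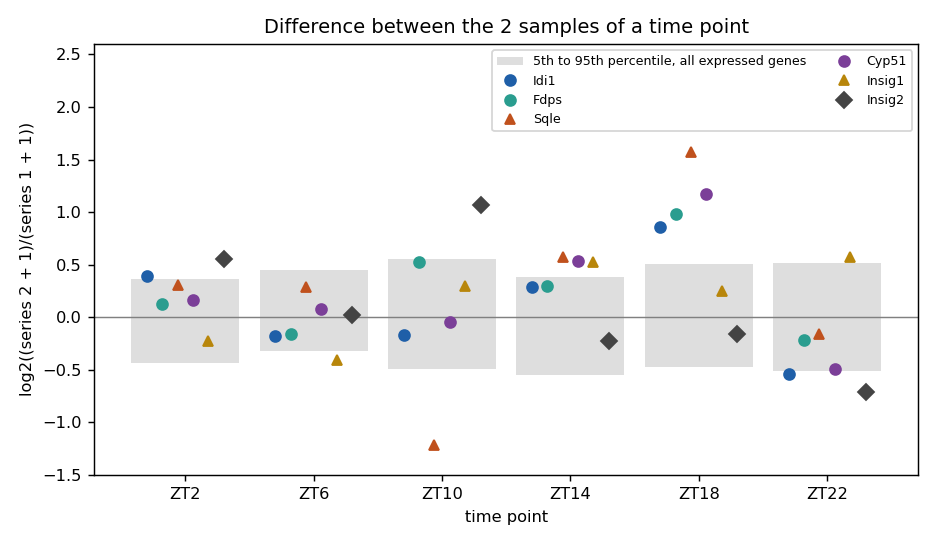
Difference between series 2 and series 1 on the log2(rpbp + 1) scale (y axis) at each time point (x axis), with 1 symbol per gene. Grey bars span the 5th to the 95th percentile of 10198 genes, and the 4 enzymes lie above it at ZT18, from 0.86 to 1.57.

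The members were set among the other genes of the route. The table lists 21 sterol synthesis enzymes, and 20 were expressed, 16 of them not members. None of the 20 was called rhythmic (0 by the limma cosine too), beside 19.1% of all genes. A permutation p below 0.05 alone was reached by 1 of 20, beside 2714 of the 10198 expressed genes. By the test among time points 4 of 20 passed, beside 17.6% of all genes, and all are outside the members. Among them, named because they passed, were Lss and Hsd17b7. Lanosterol synthase (Lss), which closes the sterol rings, had a mean of 24.7 rpbp at ZT2 and 61.4 rpbp at ZT14 (adjusted p = 0.0179 in limma). Hsd17b7, which acts late in the route, had means of 38.6 and 62.0 rpbp at the same times, with a limma adjusted p of 0.0318. Without both ZT2 samples 0 of the 20 passed, while 469 genes in all did, against 1792 with them.

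Of the enzymes not called rhythmic, those outside the members with a high mean included Sc5d, a desaturase of the sterol ring (546 rpbp), and Ebp, a sterol isomerase (285). Ebp had an F24 of 0.483 with a permutation p of 0.0525 and a highest value 1.32-fold the lowest, and Sc5d one of 0.321. Sc5d, with a highest mean of 796 rpbp at ZT6 and its lowest at ZT14 (386), ran apart from Idi1, Sqle and Cyp51. By time-point means, 15 of 20 enzymes were highest at ZT14, where 15.4% of all expressed genes were. The lowest mean was at ZT2 for 10 of 20, beside 21.9% of all genes, although Idi1, Sqle and Cyp51 were lowest at ZT18 or ZT10. In all, 18 of 20 had a higher mean log2 value in the dark, beside 4559 of the 10198 expressed genes, with a median difference of 0.12 (all expressed genes -0.02). None of the 20 passed the limma test of dark against light after adjustment, and 2 of 20 had an unadjusted p below 0.05, beside 13% of all expressed genes. They are named for that reason, and they differed in sign, Pmvk by 0.47 and Lbr by -0.23 on the log2 scale.

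**Figure D4:**
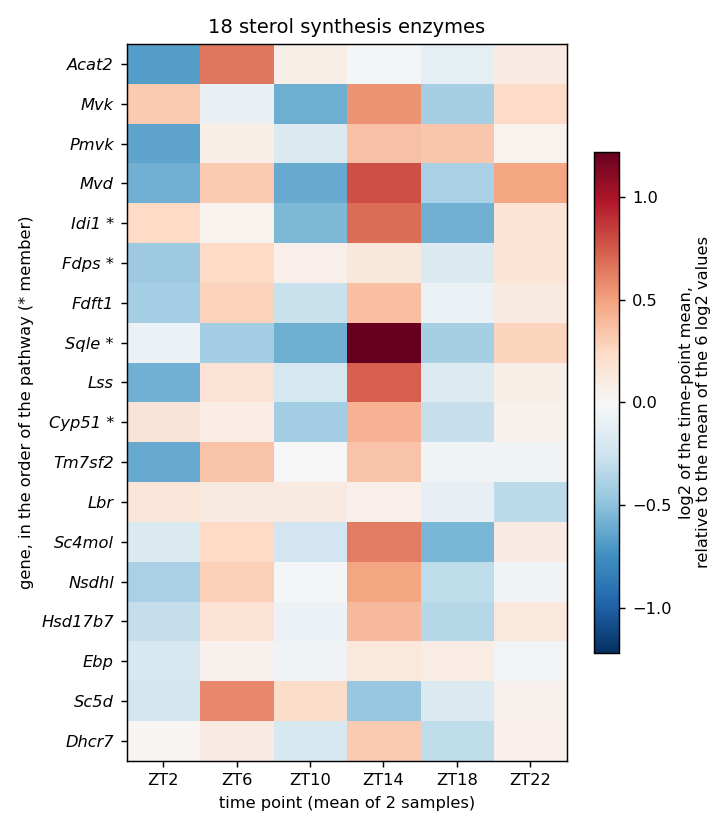
Mean of the 2 samples at each time point (columns) for 18 of the 20 expressed sterol synthesis enzymes (rows, in pathway order, members starred), as log2 relative to the average of the 6 time points of the gene. Red is above and blue below that average, and 13 of the 18 rows have their highest mean at ZT14.

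Of the genes that handle SREBP, the 4 outside the members gave 0 rhythmic calls, beside 19.1% of all expressed genes, with 1 of 4 at a permutation p below 0.05 (2714 of 10198 over all). Among them 2 passed the limma test among time points, beside 17.6%. Srebf2, which encodes SREBP2, had its highest mean at ZT14 (38.1 rpbp) and its lowest at ZT10 (20.1), with an adjusted p of 0.0142. Srebf1, which encodes the lipogenic SREBP1, ranged from 118 rpbp at ZT2 to 374 at ZT6, with an adjusted p of 0.0088. Its F24 was 0.4496, with a permutation p of 0.075. Scap, the escort protein, had a mean of 71.3 rpbp and Mbtps1, the first protease that cuts SREBP, 47.8 rpbp, with limma adjusted p of 0.115 and 0.490. Mbtps1 was the gene with a permutation p below 0.05 (0.0148). Its F24 was 0.643, and its highest value was 1.15-fold the lowest.

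Among 8 expressed genes of Insig-linked degradation at the endoplasmic reticulum 1 was called rhythmic, beside 19.1% of all expressed genes, and 4 of 8 had a permutation p below 0.05, beside 2714 of 10198. High means among those not called were those of Vcp (297 rpbp), the ATPase that extracts proteins from the membrane, and Rnf139 (63.3), a ubiquitin ligase. None of the 8 passed the test among time points in limma, beside 17.6% of all expressed genes, and 1 of 8 had an unadjusted p below 0.05, beside 37.2%. In the isoprenoid branch, which uses the product of Fdps, 1 of 8 was rhythmic, beside the same 19.1%. Coq2, which prenylates the ring of ubiquinone, had an F24 of 0.652 with a peak at 6.32 hr, an adjusted permutation p of 0.0876 and a limma cosine adjusted p of 0.0423. Fnta, Rabggtb and Dhdds had the highest means of the others, at 45.4, 44.8 and 24.9 rpbp, and their F24 lay between 0.048 and 0.471.

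Uptake, transport and export genes had 4 rhythmic calls of 17 expressed genes, beside 19.1% of all expressed genes. By the limma test among time points 8 of 17 passed, beside 17.6% of all expressed genes. Scarb1, the HDL receptor, peaked at 23.4 hr (F24 0.509), and Lrp1, a receptor for remnant lipoproteins, at 23.5 hr (F24 0.653). Abcg5 and Abcg8, whose proteins together secrete sterol into bile, peaked at 9.54 hr and 7.02 hr, with F24 of 0.602 and 0.781. Of these 4, Abcg8 kept its call with the adjusted permutation p (0.0228) and the adjusted p of the limma cosine (0.0073), and Scarb1, Lrp1 and Abcg5 did not, at 0.0781 to 0.181 and 0.0738 to 0.123. Lcat, Lipa and Nr1h3 were the highest of those not called, at 677, 295 and 125 rpbp.

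Across the 12 samples, the genes most like each member were ranked by Pearson's r of log2(rpbp + 1) among 10197 others. All points share the same 12 libraries, and r is given as a description. Cyp51 and Idi1 were first for each other (r = 0.925), and Dhcr7, the last reductase of the route, was second for both (0.923 and 0.923). For Idi1 AK215526 (0.910), Mvk, mevalonate kinase (0.899), and Nmt1 (0.879) followed. For Cyp51 the next were AK215526 (0.906), Plekhq1 (0.896) and Nudc (0.835). Sqle ranked 8th for Idi1 (r = 0.854), and its own first 5 held no enzyme of the route, namely Pomt2 (0.905), Zmiz2 (0.895), Prep (0.891), BC030183 (0.891) and 2610204M08Rik (0.890). Nor did those of Fdps, which were Gpr180 (0.877), Pcyt2 (0.819), Abcc2 (0.816), Rapgef2 (0.813) and Pstpip2 (0.811).

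Among the 5 genes most like Insig1 were Slc19a2 (r = 0.879), Fdft1, squalene synthase (0.873), and Ubb (0.868). Insig2 was most like mKIAA0899 (0.927), Kpnb1 (0.920), AK047938 (0.895), Slc16a1 (0.887) and Xk (0.887). The top 101 genes of each ranking (1%) held 9 of 19 other enzymes for Fdps, 5 of 19 each for Idi1, Sqle and Cyp51, 9 of 20 for Insig1 and 0 of 20 for Insig2. The median r with the enzymes was 0.63 for Insig1 and 0.04 for Insig2, and between the Insig genes r was -0.11.

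The Insig2 to Insig1 ratio compares both exon coverages within a sample. In series 1 it was 1.04 at ZT2, 0.355 at ZT6, 0.509 at ZT10, 0.865 at ZT14, 1.23 at ZT18 and 1.86 at ZT22. In series 2 it was 1.78, 0.477, 0.869, 0.512, 0.920 and 0.759. Insig1 had the higher coverage in 8 of 12 samples, among them both at ZT6, and Insig2 in 4. Coverage is a mean over all exons in the authors' model of a gene, so ratios near 1 do not show which mRNA was the more abundant. The transcript counts given above, 13 for Insig2 and 1 for Insig1, are those of GENCODE and not of the authors' gene models. The mean log2 ratio was lowest at ZT6 (-1.28 ± 0.30, SD, n = 2) and highest at ZT2 (0.44 ± 0.55). A 24 hr cosine took 0.458 of the variance of the log2 ratio, with a peak at 21.5 hr, and the permutation test with 100000 orders gave p = 0.0711. It was 0.0391 without ZT10 series 2 and 0.0347 without ZT22 series 2, while F24 was 0.896 in series 1 alone (p = 0.05 in the exact permutation test, not below the limit) and 0.271 in series 2 alone (p = 0.683).

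**Figure D5:**
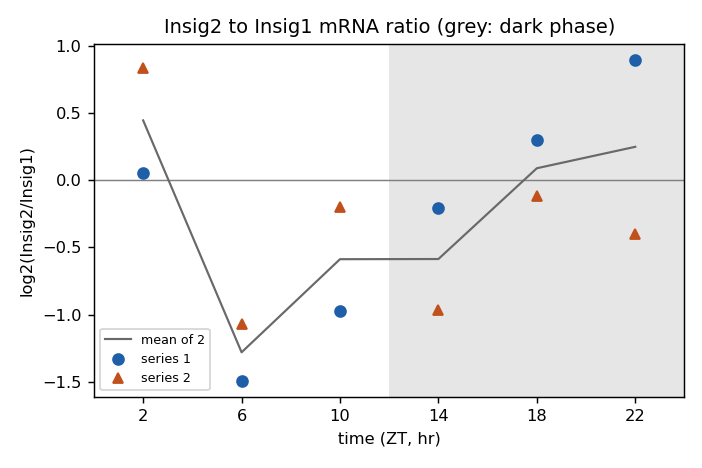
Log2 of the Insig2 to Insig1 mRNA ratio (y axis) against time in ZT hr (x axis), with circles for series 1, triangles for series 2 and the line at the mean of both. The ZT6 samples are the lowest, at ratios of 0.355 and 0.477, and the ZT22 samples lie apart, at 1.86 and 0.759.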

How the data were processed

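Libraries of mouse liver RNA were made with an unstranded TruSeq kit, and the authors mapped them with TopHat to mm9, keeping uniquely placed sequences. Base calling was by CASAVA 1.8, per the labels. The deposited signal is the mean coverage over the flattened exons of a gene, in reads per base pair, which the authors scaled to an equal number of sequences per sample. It was multiplied by 4 here, so that the study's minimum stands at 8 rpbp. It is no count of reads, so the sampling error behind a value is unknown, and the limma p-values measure the spread between samples. In the dark test that spread includes the differences among the time points of each phase. The permutation p-values come from random orders of the samples. The deposited columns of ZT20 were taken as ZT22, as the labels have it. The authors' F24, p-value and phase fill 3 further columns and were not used.

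F24 and its permutation p (10000 orders, seed 1) followed the study, with exact permutation within a series. Limma 3.58.1 in R 4.3.3 was used on log2(rpbp + 1), with Benjamini-Hochberg adjustment over 10198 genes. Other work used Python 3.11.15 with numpy 2.4.6. Scripts were tested on simulated data. The genes named are all members, the rhythmic genes of each list, up to 3 with the highest mean among those not called, and the 5 most alike per member. Lss, Hsd17b7, Srebf2, Pmvk and Lbr were added after their values were seen. Rows were matched by symbol, and the members and lists were chosen with earlier results of these data known. One member, and some genes that this rule names, are not reported here. Alternatives covered the minimum, pseudocount, scaling, test, block and samples left out.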

Additional observations from a re-analysis of the deposited data

How the results depend on the processing

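The count of rhythmic genes over the whole table, 1948, was 491 with an adjusted permutation p and 828 with the adjusted p of the limma cosine in place of the permutation p, the limits on F24 and amplitude being kept, and between 286 and 2009 when a sample or a series was left out. Of the members 1 was called rhythmic, against 0 with the adjusted p, 2 without both ZT18 samples, and 0 to 1 with a sample or series left out, where the gene was Fdps, and not Insig2, without series 1. Of the sterol synthesis enzymes 0 were called, against 1 with log2(rpbp + 1) or log2(rpbp + 0.1), 2 without both ZT18 samples, and 0 to 2 with a sample or series left out. The samples whose omission gave a call were series 1 at ZT10 and ZT18 and series 2 at ZT14, ZT18 and ZT22, as was the omission of all of series 1.

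In the test among the 6 time points, 1792 genes passed, against 469 without both ZT2 samples and 724 to 1676 with 1 sample left out, lowest without a ZT2 or ZT6 sample. Of the members 0 passed, against 1 with a minimum of 16 rpbp (Idi1), 2 with a trend in the limma prior (Idi1 and Insig1), 2 without both ZT18 samples and 0 to 2 with 1 sample left out. Of the enzymes 4 passed, against 1 with no minimum, 0 without both ZT2 samples and 0 to 6 with 1 sample left out.

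In the dark, 22 genes were higher and 14 lower, against 12 and 7 with no minimum, and 0 to 28 and 0 to 12 with a sample or series left out. Of the members and of the enzymes 0 passed in each of these. With a sample or series left out, the difference for Fdps lay between -0.023 and 0.22, and was negative without ZT2 series 1 (-0.022) and without series 2. That for Cyp51 lay between -0.10 and 0.27, and was negative without ZT10 series 2 (-0.0044), without ZT14 series 2 (-0.06) and without series 2. For the Insig2 to Insig1 ratio, F24 lay between 0.271 and 0.896 with a sample or series left out, and was 0.581 without ZT10 series 2 and 0.594 without ZT22 series 2. The cause of these differences was not tested.

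The replicate block, which pairs samples by series number, gave 1 rhythmic enzyme, 2118 rhythmic genes, 1395 genes different among time points, and 12 genes higher and 7 lower in the dark. With the time point as a term beside the replicate block there were 232 and 142. Deviations of series 1 from the time-point means correlated at -0.15 to 0.21 across genes over 15 pairs of time points. The median was -0.03, and 2 of the 15 were above 0.1. Such correlations over all genes cannot show whether the samples of a series share more than a number. With 2 samples per time point, their number limits the precision.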
